A study of Mus musculus with 12 samples.

Results

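Whole testes from 2 mice at postnatal day (PND) 17 were compared with whole testes from 2 mice at PND 14. These 4 mice were chosen by the age given in the labels, out of 10 mice in the series (2 at each of PND 7, 14, 17, 21 and 28). All were C57BL/6NHsd mice, an inbred laboratory strain, without treatment or genetic change, and their total RNA was sequenced on the SOLiD 4 after removal of ribosomal RNA. The question of the comparison was what changes in the testis while the first spermatocytes pass through the pachytene stage of meiosis.

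In the first wave of spermatogenesis the germ cells of a young mouse enter meiosis almost together. In the pachytene stage the paired chromosomes are held by the synaptonemal complex while crossovers form, the X and Y chromosomes are silenced in the sex body, and the transcription factor A-MYB, the product of Mybl1, turns on many genes that are used later by spermatids, together with precursors of pachytene piRNAs. Sertoli cells, which nurse the germ cells, and Leydig cells, which make androgens, are present at both ages. A whole testis holds all of these cells, so that fewer cells of a type and less RNA per cell cannot be told apart in the values below.

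The total count on genes was 7795744 and 7169408 in PND 14 mouse 1 and mouse 2, and 13559548 and 3994026 in PND 17 mouse 1 and mouse 2. Levels are given as CPM, the reads of a gene scaled to a common library size, after TMM scaling, which equalises the bulk of the genes between libraries, and 3 counts are worth between 0.209 and 0.725 CPM in the 4 mice. Differences are log2 fold changes of PND 17 minus PND 14, fitted by edgeR with all 10 mice in 1 model, and brackets after them hold the 95% interval. Genes were also read as lists of stage and cell type markers, and no list was tested as a set. The summed level of a list covers all its members found in the files, and its counts and medians cover the members that were tested.

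A pair of libraries stood apart from the others, and the results that rest most on them are given with and without them. PND 14 mouse 1 held transcripts of round and elongating spermatids, the haploid cells that appear after PND 17. Over the 33 spermatid genes tested, the summed level was 607 CPM in PND 14 mouse 1 and 103 CPM in PND 14 mouse 2. It was 140 and 117 CPM in the PND 17 mice, 1568 and 943 CPM at PND 21, and 14320 and 16596 CPM at PND 28. The level of PND 14 mouse 1 thus lay above both mice of the older age. The transition protein gene Tnp1, which packs spermatid chromatin, was at 55.5 CPM in PND 14 mouse 1, 1.97 CPM in PND 14 mouse 2, and 2.23 and 2.17 CPM in the PND 17 mice. The protamine gene Prm1 was at 52.6, 1.05, 1.39 and 0.97 CPM in the same order. Akap4, which encodes a protein of the sperm tail's fibrous sheath, was at 60.9, 3.02, 4.46 and 5.56 CPM.

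The same was read from 143 genes that reached at least 100 CPM in both PND 28 mice and stayed at or under 1% of that level in the PND 7 and PND 17 mice, a choice that did not use PND 14. Their median level was 2.48% of the PND 28 level in PND 14 mouse 1 and 0.189% in PND 14 mouse 2. It was 0.246% and 0.238% in the PND 17 mice. All 143 genes were higher in PND 14 mouse 1 than in PND 14 mouse 2, beside 50.7% of all genes tested. They were also higher than in both PND 17 mice, where the choice had required low levels. The middle quartiles of PND 14 mouse 1 ran from 1.96% to 3.20%. Where these transcripts came from was not tested.

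**Figure D1:**
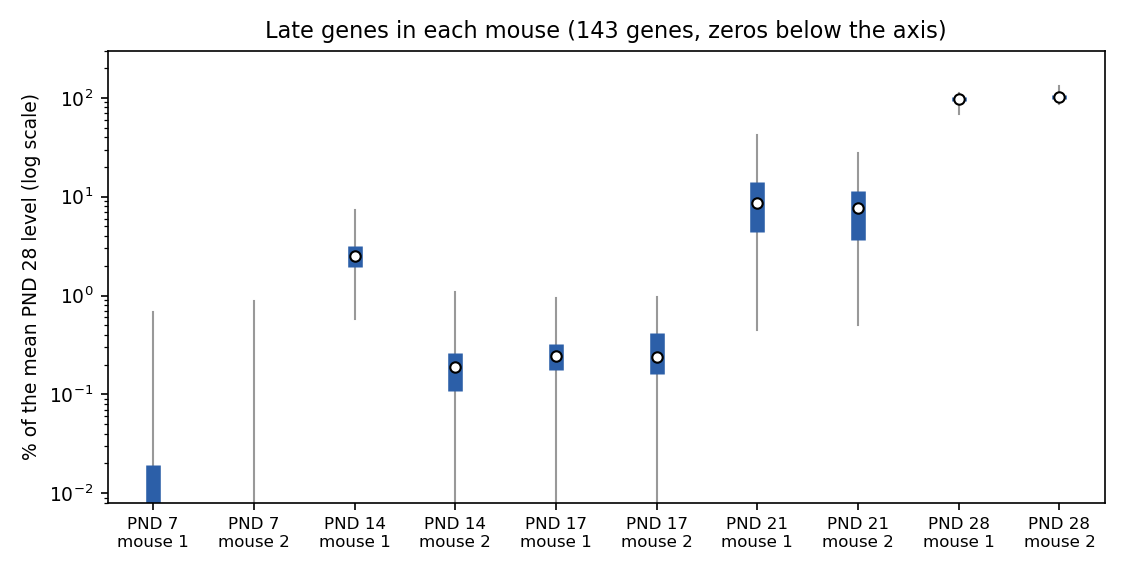
Level of 143 late genes in each mouse as a percentage of their mean level at PND 28, on a log axis. Points are medians, thick bars the middle quartiles and thin lines the whole range, with values of 0 lying below the axis. PND 14 mouse 1 has a median of 2.48%, and the other PND 14 mouse and both PND 17 mice have medians from 0.189% to 0.246%.

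PND 17 mouse 1 held high levels of some genes of the epididymis, the duct attached to the testis. Spink8, a protease inhibitor gene of that duct, was at 0.66 and 1.31 CPM in the PND 14 mice and at 198 and 3.62 CPM in the PND 17 mice. Crisp1, which encodes an epididymal protein that coats sperm, was at 0.44 and 1.18 CPM at PND 14 and at 169 and 0.48 CPM at PND 17. A list of 23 epididymal genes, added after Spink8 and similar genes had been seen, summed to 5.60, 4.33, 195 and 2.66 CPM, and Crisp1 alone gave 169 CPM of the 195 CPM in PND 17 mouse 1. Of the 6 members tested, Adam7 had 174 reads in PND 17 mouse 1 and 0 in the other 3 mice. Cst11, at 2.31, 1.31, 0.63 and 1.45 CPM, and Lcn2, at 1.98, 0.66, 2.02 and 0.24 CPM, showed no such gap, and Ros1 had no read in it. Another 9 of the 23, among them Gpx5, had no read in any of the 4 mice. The part of this tissue in the results was not tested. PND 7 mouse 2, at 74.6 CPM, also lay far above its pair at 1.80 CPM.

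The promoters of 3 genes described below are shown here to give the sequence just before their starts. Ldhc had the highest level in the pachytene list, and Spata4 was in that list and among the genes listed by the study. Slc9a10 (Slc9c1 in RefSeq), a sperm sodium/proton exchanger gene, was among the genes that met the study's thresholds as applied below. Each window runs from 250 bases before to 50 bases after the RefSeq start site on GRCm38.p6, 5′ to 3′ on the gene's strand, with matches to AACNGNC on either strand, a written form of the MYB element, in capitals. They lie at chr7:46861013-46861312, chr8:54600531-54600830 and chr16:45535016-45535315, all on the plus strand.
Ldhc: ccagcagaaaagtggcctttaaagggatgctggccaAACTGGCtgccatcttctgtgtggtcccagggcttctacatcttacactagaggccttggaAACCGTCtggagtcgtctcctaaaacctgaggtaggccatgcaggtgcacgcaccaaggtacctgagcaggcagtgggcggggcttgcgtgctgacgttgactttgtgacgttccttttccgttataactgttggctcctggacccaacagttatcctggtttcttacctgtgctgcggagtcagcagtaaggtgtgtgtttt
Spata4: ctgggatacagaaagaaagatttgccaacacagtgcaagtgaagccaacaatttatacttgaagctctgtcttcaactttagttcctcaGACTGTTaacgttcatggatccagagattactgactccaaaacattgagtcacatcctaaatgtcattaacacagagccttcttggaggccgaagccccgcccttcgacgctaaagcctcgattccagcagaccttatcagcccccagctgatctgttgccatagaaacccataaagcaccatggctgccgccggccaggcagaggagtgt
Slc9a10: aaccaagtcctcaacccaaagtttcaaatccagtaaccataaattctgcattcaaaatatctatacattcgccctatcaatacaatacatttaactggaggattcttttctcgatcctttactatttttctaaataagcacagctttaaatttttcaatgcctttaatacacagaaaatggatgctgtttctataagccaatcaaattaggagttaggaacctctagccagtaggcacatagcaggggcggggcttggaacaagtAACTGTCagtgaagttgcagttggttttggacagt

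The Ldhc window held 2 such matches, and the Spata4 and Slc9a10 windows held 1 each. In all, 3 written forms of the element were searched on both strands, and they gave different pictures. Only AACNGNC is in capitals, and the Ldhc and Slc9a10 windows also hold unmarked matches to another form. In the Spata4 window a match to TAACNG on the other strand overlaps the capitals. The capitals therefore do not give the place or number of all matches. AACNGNC was found in 11 of 26 pachytene promoters that could be matched (42.3%) and in 32.8% of all 27025 promoters. TAACNG was found in 6 of the 26 (23.1%) and in 23.2% of all promoters. The remaining form, AACTG or AACGG directly after a C or T, was found in 4 of the 26 (15.4%) and in 28.2% of all promoters. The pachytene share was thus above, close to or below the share of all promoters depending on the form, and the matches are a description of the letters only.

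No gene passed the test between PND 14 and PND 17. edgeR's quasi-likelihood test called 0 of 16860 genes (0.0%) at a Benjamini-Hochberg adjusted p under 0.05 with at least a 2-fold change, and the lowest adjusted p was 1. An unadjusted p under 0.05 was reached by 769 genes (4.56%), of which 312 were higher at PND 17 (1.85%) and 457 lower (2.71%). DESeq2 called 1 gene, Gm15070, and edgeR without its filter on low counts called 357 of 26788 genes. A 95% interval reached 0.85 on the log2 scale to either side of the fitted value at the median gene. This holds for a single gene without adjustment, and a call over 16860 genes needs a larger fitted difference. The count of 0 calls therefore does not exclude true differences of this size or somewhat larger. Without PND 17 mouse 1 the count was 0 as well, with 204 of 17942 genes at an unadjusted p under 0.05. An exact permutation test for 1 gene has too few arrangements of 4 mice to reach 0.05.

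Without PND 14 mouse 1 the test again called 0 genes, and an unadjusted p under 0.05 was reached by 175 of 17964 genes (0.974%), of which 148 were higher at PND 17. Of the 769 genes, 661 kept their sign and 108 changed it, and 105 still had an unadjusted p under 0.05 in the same direction (90 higher, 15 lower). Without PND 14 mouse 2, which leaves PND 14 mouse 1 alone for its age, 174 genes were called, and 167 of these were lower at PND 17. That fit covered 17985 genes. In it the median log2 fold change was -3.37 in the spermatid list, beside -0.01 over all genes tested with all mice.

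The study's thresholds were also applied, a limma p not above 0.01, a change of 2-fold or more and a gap of 10 RPKM or more between the means. The scale, log2(RPKM + 1), and the use of the unadjusted p were chosen here, since the methods do not fix them, so the count is not the study's own. On that scale 3 of 26788 genes were higher at PND 17 (0.0112%) and 1 was lower (0.00373%). The higher genes were a U1 spliceosomal RNA gene (ENSMUSG00000065216), Aqp8 and Slc9a10, and the lower gene was Mir19a. Without PND 14 mouse 1, 0 genes met these criteria, and without PND 14 mouse 2, 71 did. Without PND 17 mouse 1, 2 genes met them, and without PND 17 mouse 2, 50 did.

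Differences between single mice are set here beside those between the ages. PND 14 mouse 1 and mouse 2 differed at least 2-fold at 1396 of 16860 genes, and the PND 17 mice differed from each other at 491. PND 14 mouse 2 differed from the PND 17 mice at 362 and 395 genes, fewer than the PND 17 mice from each other. Most of the 491 and of the 362 genes were higher in PND 17 mouse 1, at 421 and 325 genes. The 395 genes split into 163 higher and 232 lower in PND 17 mouse 2. The PND 17 libraries also differ in depth, and the part of depth or of epididymal genes in these counts was not tested. From PND 14 mouse 1 the PND 17 mice differed at 2088 and 1456 genes. Among 9549 genes at 10 CPM or more on average, the PND 14 mice differed at 565 genes, PND 14 mouse 2 and the PND 17 mice at 101 and 47, and the PND 17 mice at 123.

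**Figure D2:**
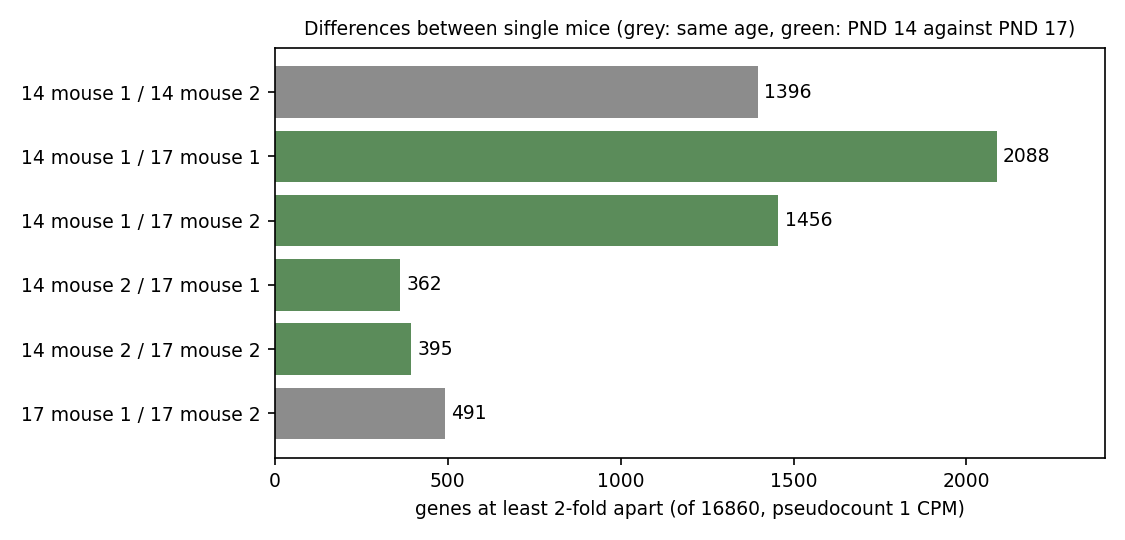
Number of genes at least 2-fold apart between each pair of the 4 mice, of 16860 genes tested, after adding 1 CPM. Grey bars are mice of the same age and green bars mice of different ages. The bars with PND 14 mouse 1 run from 1396 to 2088 and the others from 362 to 491.

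Both PND 17 mice lay above both PND 14 mice at 2568 genes (15.2%) and below both at 2700 genes (16.0%). The near-even split rests on TMM scaling, since with library totals 1818 genes were above and 3511 below. Against PND 14 mouse 2 alone, both PND 17 mice lay above at 4992 genes (29.6%) and below at 5064 (30.0%). With so few mice, a random order of the mice would give shares of about this size or larger in both counts. The shares alone therefore show no difference between the ages.

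The pachytene program, a list of 37 genes that are active in pachytene spermatocytes, some of them also earlier (Dazl) or mainly later (Hspa1l), had a summed level of 4297 and 6583 CPM in the PND 14 mice and 8526 and 6136 CPM in the PND 17 mice. It stood at 671 and 554 CPM at PND 7, and at 31235 and 28690 CPM at PND 28. PND 17 mouse 2 thus lay below PND 14 mouse 2. The median log2 fold change was 0.41 in the fit of all mice and 0.19 without PND 14 mouse 1, beside 0.00 and 0.01 over all genes tested. Without PND 17 mouse 1 it was 0.20, and the members higher at an unadjusted p under 0.05 numbered 5 with all mice, 1 without PND 14 mouse 1 and 0 without PND 17 mouse 1. The test called 0 of the 37 genes. Both PND 17 mice were above both PND 14 mice at 10 genes and below at 1, beside 15.2% and 16.0% of all genes tested. The 5 members higher at an unadjusted p under 0.05 with all mice stand beside 1.85% of all genes tested. Of the 37, 34 were fitted higher at PND 17 with all mice (49.1% of all genes tested) and 26 without PND 14 mouse 1 (52.0%).

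Ldhc, the lactate dehydrogenase of germ cells, was at 475 and 942 CPM at PND 14 and at 1427 and 894 CPM at PND 17, a log2 fold change of 0.71 [-0.12 to 1.55]. Its ages overlapped, and the value was 0.30 [-0.50 to 1.10] without PND 14 mouse 1 and 0.33 [-0.64 to 1.31] without PND 17 mouse 1. Adam3, which encodes a sperm surface protein needed for binding the egg, was at 45.9 and 61.0 CPM at PND 14 and at 174 and 74.6 CPM at PND 17. Its log2 fold change was 1.23 [0.33 to 2.12] and 1.04 [-0.04 to 2.11] without PND 14 mouse 1, with both PND 17 mice above. Without PND 17 mouse 1 it was 0.48 [-0.42 to 1.37].

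Spata4, a testis gene, was at 80.1 and 172 CPM at PND 14 and at 328 and 188 CPM at PND 17, a log2 fold change of 1.04 [0.10 to 1.97] and 0.59 [-0.34 to 1.53] without PND 14 mouse 1. It was 0.58 [-0.50 to 1.65] without PND 17 mouse 1. Ccna1, the cyclin needed for spermatocytes to leave prophase, was at 3.74 and 4.20 CPM at PND 14 and at 11.5 and 5.07 CPM at PND 17, and its log2 fold change of 1.14 became 0.35 without PND 17 mouse 1. In both genes PND 17 mouse 1 was the highest and PND 17 mouse 2 lay close to PND 14 mouse 2. Mybl1, the A-MYB gene, was at 150 and 192 CPM at PND 14 and at 206 and 181 CPM at PND 17, a log2 fold change of 0.18 [-0.28 to 0.64]. Dazl, which encodes an RNA-binding protein of germ cells, was at 598 and 705 CPM at PND 14 and at 639 and 686 CPM at PND 17, and its ages overlapped.

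The gene with both PND 17 mice below was Theg, a testis gene at 3.08 and 0.66 CPM at PND 14 and at 0.21 and 0 CPM at PND 17. Hspa1l, a heat shock gene of spermatids, was at 13.2 and 0.92 CPM at PND 14 and at 1.88 and 4.59 CPM at PND 17. Its log2 fold change was -1.34 [-3.14 to 0.45] with all mice and 1.58 [0.21 to 2.95] without PND 14 mouse 1, so that its direction turned on that mouse. The other genes without overlap included Adam5, which encodes a sperm surface protein, at 88.6 and 175 CPM at PND 14 and at 299.6 and 179 CPM at PND 17, and Pabpc2, a poly(A)-binding protein gene of germ cells, at 46.5 and 71.0 CPM at PND 14 and at 147 and 79.5 CPM at PND 17. In both, PND 17 mouse 2 lay close above PND 14 mouse 2, and without PND 17 mouse 1 the log2 fold changes were 0.44 for Adam5 and 0.43 for Pabpc2.

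**Figure D3:**
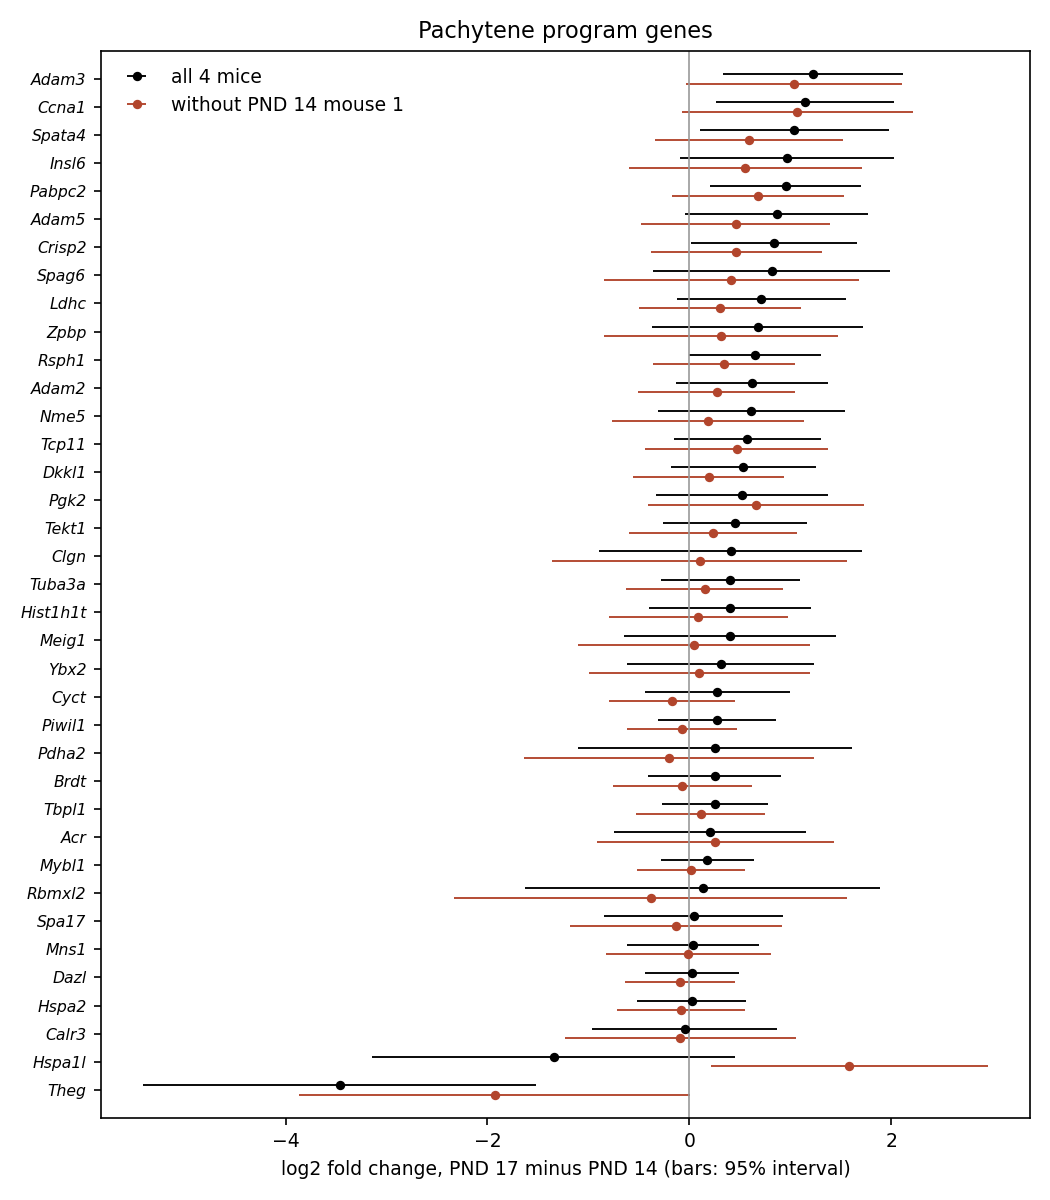
Fitted log2 fold change of the 37 pachytene program genes, PND 17 minus PND 14, with the 95% interval as a bar. Black marks use all mice and red marks leave out PND 14 mouse 1. The median is 0.41 in black and 0.19 in red.

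The lists of chromosome pairing and recombination had medians close to 0. The synaptonemal complex and axis list (13 genes) summed to 2038 and 2899 CPM at PND 14 and to 2839 and 2653 CPM at PND 17, with a median log2 fold change of 0.10 and of -0.01 without PND 14 mouse 1. Sycp1, the transverse filament of the complex, was at 442 and 671 CPM at PND 14 and at 573 and 570 CPM at PND 17, a log2 fold change of 0.04 [-0.48 to 0.56]. Sycp2, a protein of the chromosome axis, was at 459 and 746 CPM at PND 14 and at 715 and 576 CPM at PND 17. Rec8, the meiotic cohesin, was at 26.1 and 17.6 CPM at PND 14 and at 15.7 and 9.66 CPM at PND 17, with both PND 17 mice below and a log2 fold change of -0.76 [-1.62 to 0.11]. The double-strand break and crossover list (23 genes) summed to 1784 and 1877 CPM at PND 14 and to 1817 and 1934 CPM at PND 17, with a median of 0.04. Tex15, needed for repair of the breaks, was at 679 and 609 CPM at PND 14 and at 616 and 637 CPM at PND 17. Hfm1, a helicase gene needed for crossovers, was at 141 and 228 CPM at PND 14 and at 236 and 231 CPM at PND 17, and PND 14 mouse 1 stood below the other 3.

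The piRNA pathway list (23 genes) summed to 3272 and 4329 CPM at PND 14 and to 4467 and 4002 CPM at PND 17, with a median log2 fold change of 0.13 and of -0.06 without PND 14 mouse 1. Mael, a piRNA pathway gene, was at 372 and 568 CPM at PND 14 and at 709 and 469 CPM at PND 17. Tdrd6, a component of the chromatoid body, was at 61.2 and 80.6 CPM at PND 14 and at 178 and 108 CPM at PND 17, with both PND 17 mice above and a log2 fold change of 1.02 [0.10 to 1.94], or 0.61 [-0.48 to 1.70] without PND 17 mouse 1. The list of the meiotic G2/M transition (24 genes) summed to 917 and 1181 CPM at PND 14 and to 1149 and 1038 CPM at PND 17, with a median of 0.03. Cdc25a, a phosphatase of the cell cycle, was at 49.1 and 28.1 CPM at PND 14 and at 20.9 and 24.4 CPM at PND 17.

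Genes on the X chromosome (745 tested) had a median log2 fold change of -0.08 and of 0.01 without PND 14 mouse 1. The medians of the 19 autosomes lay between -0.04 and 0.04. Both PND 17 mice were below both PND 14 mice at 133 X-linked genes and above at 97, beside 16.0% and 15.2% of all genes tested. Autosomal retrogenes, copies that stand in for X-linked parents when the X is silent, had a median of 0.19 over 12 genes and of -0.04 without PND 14 mouse 1, and their X-linked parents a median of -0.02 over 13 genes. Pgk2, a retrogene of glycolysis, was at 28.2 and 23.8 CPM at PND 14 and at 53.1 and 20.3 CPM at PND 17, and its parent Pgk1 was at 1.10 and 2.1 CPM and at 0.84 and 0.48 CPM. Cetn1, a centrin of cilia, was at 30.3 and 66.7 CPM at PND 14 and at 108 and 54.8 CPM at PND 17, and its parent Cetn2 was at 18.7, 22.3, 19.6 and 20.8 CPM. The ages overlapped in both retrogenes.

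Of the other retrogene pairs, the most abundant are given here. Cstf2t, which encodes an RNA processing factor, was at 74.6 and 114 CPM at PND 14 and at 118 and 106 CPM at PND 17, and its parent Cstf2 at 87.0, 73.9, 75.2 and 89.6 CPM. Rpl39l, a ribosomal protein gene, was at 155 and 207 CPM at PND 14 and at 221 and 177 CPM at PND 17, and its parent Rpl39 at 4.72, 6.82, 6.06 and 5.07 CPM. Pdha2, a subunit gene of pyruvate dehydrogenase, was at 47.7 and 105 CPM at PND 14 and at 99.7 and 82.4 CPM at PND 17, and its parent Pdha1 at 21.6, 33.1, 32.1 and 34.5 CPM. In these 3 retrogenes PND 14 mouse 1 was the lowest of the 4 mice. The 9 Y-linked genes tested had a median of 0.08.

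The spermatid list had a median log2 fold change of -2.46 over 33 genes in the fit of all mice and of 0.28 without PND 14 mouse 1. With all mice, 25 of the 33 genes had an unadjusted p under 0.05 and were lower at PND 17, beside 2.71% of all genes tested, and without PND 14 mouse 1 this held for 0. Tnp1 had a log2 fold change of -3.70 [-6.11 to -1.29] with all mice and of 0.17 [-1.14 to 1.47] without that mouse. Odf2, a gene of the sperm tail's outer dense fibres, was at 126 and 52.4 CPM at PND 14 and at 78.2 and 65.0 CPM at PND 17.

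**Figure D4:**
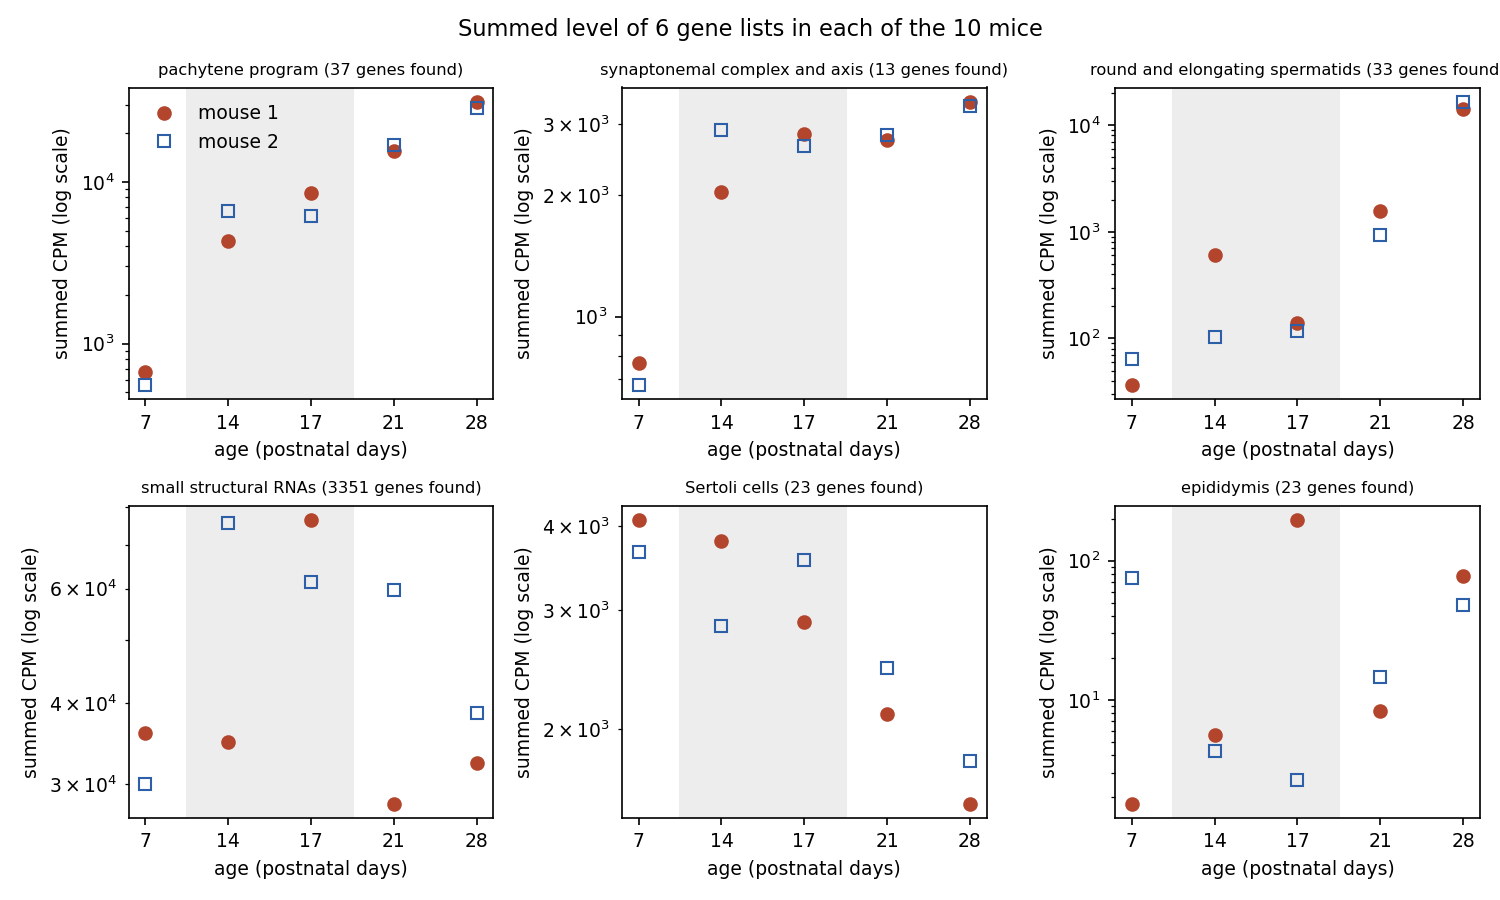
Summed level of all members found of 6 lists in each of the 10 mice, in CPM on a log axis, against age in postnatal days, with PND 14 and PND 17 shaded. Filled circles are mouse 1 and open squares mouse 2 of each age. The spermatid sum is 607 CPM in PND 14 mouse 1 and 103 CPM in mouse 2, and the epididymal sum is 195 CPM in PND 17 mouse 1 and 2.66 CPM in mouse 2.

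Spermatogonial genes (21 tested) summed to 682 and 695 CPM at PND 14 and to 666 and 731 CPM at PND 17. Dmrtb1, which controls the entry into meiosis, was at 24.3 and 34.8 CPM at PND 14 and at 70.3 and 34.8 CPM at PND 17, with PND 17 mouse 2 at the level of PND 14 mouse 2. Uchl1 was at 105 and 86.6 CPM at PND 14 and at 87.0 and 106 CPM at PND 17.

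Sertoli cell genes (23 tested) summed to 3798 and 2845 CPM at PND 14 and to 2884 and 3556 CPM at PND 17, with a median log2 fold change of -0.08 and of 0.14 without PND 14 mouse 1. Clu, the clusterin gene, was at 1151 and 440 CPM at PND 14 and at 437 and 674 CPM at PND 17. Aqp8, a water channel of Sertoli cells at Ensembl gene ENSMUSG00000030762, was at 4.83 and 9.58 CPM at PND 14 and at 16.6 and 28.7 CPM at PND 17. Both PND 17 mice lay above both PND 14 mice, and the log2 fold change was 1.64 [0.59 to 2.69] and 1.22 [0.04 to 2.39] without PND 14 mouse 1. The values of Aqp8 rest on 44, 73, 239 and 119 reads. Over the list, both PND 17 mice lay above both PND 14 mice at 4 genes and below at 2, beside 15.2% and 16.0% of all genes tested. The genes below were Amh and Kitl. Amh was at 18.9 and 7.61 CPM at PND 14 and at 4.25 and 6.04 CPM at PND 17. Its log2 fold change was -1.41 [-2.56 to -0.26] and -0.60 without PND 14 mouse 1. Espn, which bundles actin at Sertoli cell junctions, was at 76.6 and 35.2 CPM at PND 14 and at 30.8 and 37.2 CPM at PND 17, and Ctsl, a cathepsin gene, was at 701, 760, 786 and 886 CPM.

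Leydig cell genes (17 tested) summed to 650 and 702 CPM at PND 14 and to 729 and 805 CPM at PND 17, with a median log2 fold change of -0.05. Star, which brings cholesterol into mitochondria for steroid synthesis, was at 49.99 and 26.0 CPM at PND 14 and at 62.4 and 112 CPM at PND 17. Its log2 fold change was 1.19 [-0.09 to 2.47] and 1.74 [0.14 to 3.33] without PND 14 mouse 1. Vcam1, a cell adhesion gene, was at 65.6 and 94.0 CPM at PND 14 and at 100 and 171 CPM at PND 17. Scarb1, the receptor that takes up cholesterol, was at 129 and 100 CPM at PND 14 and at 94.2 and 90.3 CPM at PND 17, the opposite order. Acta2, the smooth muscle actin gene of peritubular cells, was at 193 and 191 CPM at PND 14 and at 169 and 174 CPM at PND 17. Lyz2, the lysozyme gene of macrophages, was at 22.9 and 24.8 CPM at PND 14 and at 24.9 and 37.2 CPM at PND 17. Peritubular myoid genes (11 tested) had a median of -0.17 and genes of endothelium, macrophages and blood (12 tested) a median of -0.20, and without PND 14 mouse 1 these were 0.09 and 0.03.

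The largest fitted differences above 10 CPM with no overlap between the ages were led on the higher side by Serpina1f, Spink8, Cd52 and Cuzd1. Each had its high value in PND 17 mouse 1 alone, at 49.4, 198, 39.5 and 139 CPM, while PND 17 mouse 2 was at 0.72, 3.62, 0.97 and 4.83 CPM. Without PND 17 mouse 1 their log2 fold changes went from 7.56, 6.70, 5.59 and 4.90 to 2.42, 1.88, 1.17 and 0.98, each with an interval that held 0. The fifth was Abca15, a transporter gene, at 1.54 and 7.87 CPM at PND 14 and at 26.5 and 14.0 CPM at PND 17. Its log2 fold change was 2.16 [0.88 to 3.44] and 1.40 [0.43 to 2.36] without PND 14 mouse 1, and 1.59 [0.06 to 3.13] without PND 17 mouse 1. On the lower side the leading genes were the long noncoding RNAs Meg3, Neat1 and Malat1, Cdh23, a cadherin gene, and Gspt2, a translation termination factor gene. Malat1 was at 3951 and 1533 CPM at PND 14 and at 845 and 801 CPM at PND 17, a log2 fold change of -1.74 [-3.01 to -0.47] and of -0.90 [-2.14 to 0.34] without PND 14 mouse 1. Meg3 was at 34.7 and 11.0 CPM at PND 14 and at 5.92 and 2.66 CPM at PND 17, and Neat1 was at 126, 47.8, 31.3 and 19.3 CPM. Cdh23 was at 92.2, 38.3, 21.6 and 29.7 CPM, and Gspt2 at 25.8, 12.7, 6.41 and 10.1 CPM. The highest value of all 5 was in PND 14 mouse 1.

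The genes of lowest p were Gm15070, Thsd7b and Sel1l3. Gm15070, an X-linked noncoding transcript, was at 10.4 and 12.7 CPM at PND 14 and at 33.3 and 44.7 CPM at PND 17. Its log2 fold change was 1.74 [1.03 to 2.46] and 1.60 [0.71 to 2.5] without PND 14 mouse 1. The values of Gm15070 rest on 95, 97, 479 and 185 reads. Thsd7b was at 1.87 and 2.76 CPM at PND 14 and at 12.1 and 5.80 CPM at PND 17. Sel1l3 was at 15.1 and 10.5 CPM at PND 14 and at 4.73 and 4.83 CPM at PND 17, with a log2 fold change of -1.42 [-2.06 to -0.78] and of -1.13 [-1.85 to -0.42] without PND 14 mouse 1. In these 3 genes, picked by p on these same mice, the ages did not overlap. Leaving out 1 mouse could therefore hardly turn their direction, and only the size of the change is of use. Without PND 17 mouse 1 the values were 1.94, 1.33 and -1.41 in the same order. The adjusted p of the 3 genes in edgeR was 1.

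**Figure D5:**
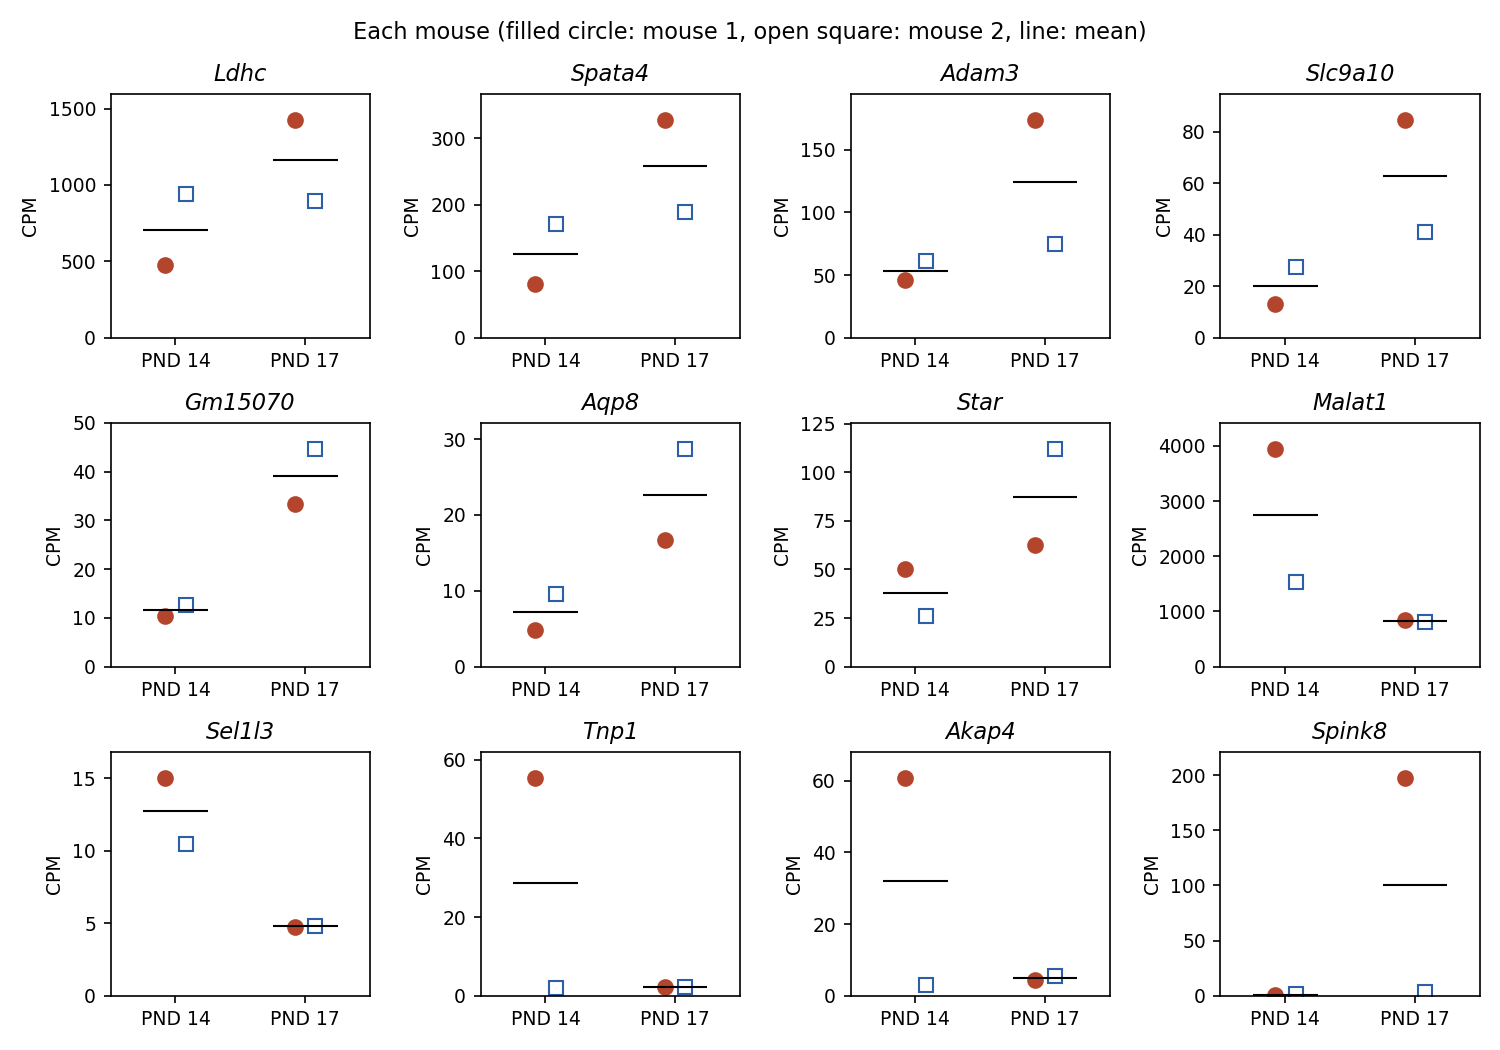
Level of 12 genes in each of the 4 mice, in CPM from 0, with the mean of each age as a line. Filled circles are mouse 1 and open squares mouse 2. Gm15070 is at 10.4 and 12.7 CPM at PND 14 and at 33.3 and 44.7 CPM at PND 17, while Tnp1 and Spink8 are high in 1 mouse only.

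Slc9a10 was at 13.1 and 27.4 CPM at PND 14 and at 84.8 and 41.1 CPM at PND 17, a log2 fold change of 1.65 [0.75 to 2.55] and of 1.22 [0.28 to 2.15] without PND 14 mouse 1. Without PND 17 mouse 1 it was 1.02 [0.08 to 1.96]. These values rest on 119, 209, 1218 and 170 reads. It lies on chromosome 16, from 45535422 to 45607114 on the plus strand of mm9.

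The small structural RNAs (385 tested) were small nucleolar, Cajal body and spliceosomal RNA genes and genes of other kinds, such as 7SK and Y RNA. They summed to 34869 and 75589 CPM at PND 14 and to 76412 and 61329 CPM at PND 17. Genes outside the named classes (58 tested) made up 15659 and 26704 CPM of this at PND 14. At PND 17 they made up 27094 and 22213 CPM. The low library was PND 14 mouse 1, which lay below PND 14 mouse 2 at 358 of the 385 genes (48.4% of all genes tested). The median log2 fold change was 0.49 with all mice and -0.07 without PND 14 mouse 1. Both PND 17 mice lay above both PND 14 mice at 77 of these genes and below at 7, beside 15.2% and 16.0% of all genes tested. Of the kinds, C/D small nucleolar RNAs (127 tested) had a median of 0.36 and of -0.18 without that mouse, and H/ACA small nucleolar RNAs (103 tested) a median of 0.61 and of 0.07. U1 genes (24 tested) had a median of 0.86 and of 0.21. The U1 gene ENSMUSG00000065216 was at 5.82 and 11.7 CPM at PND 14 and at 20.7 and 19.1 CPM at PND 17, a log2 fold change of 1.19 [0.38 to 2.0] and of 0.77 [-0.07 to 1.61] without PND 14 mouse 1. U1 genes have many near-identical copies, and the methods say that unique reads were counted. Reads that match several copies alike may therefore be missing from its count.

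A set of 18 genes that the study names as higher at PND 17 is a part of its list, chosen on these same mice. All 18 were fitted higher, beside 49.1% of all genes tested, and 0 passed the test. Both PND 17 mice lay above both PND 14 mice at 9 of the 18, beside 15.2% of all genes tested. The summed level of the 18 genes was 1241 CPM in PND 14 mouse 1 and 4288 CPM in PND 14 mouse 2. It was 5087 and 3914 CPM in the PND 17 mice. The median log2 fold change was 0.82 and 0.35 without PND 14 mouse 1. Small RNA genes lay on the same strand within 9 of the 18, and inside an annotated exon in 7. Which reads of these genes came from the small RNAs was not tested.

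Mir19a belongs to the miR-17-92 cluster, whose microRNAs act in proliferating cells. The mature sequence from RefSeq, at chr14:115044048-115044070 on the plus strand of GRCm38.p6, is shown because this was the gene on the lower side by the study's criteria, with the seed (bases 2 to 8) in capitals.
mmu-miR-19a-3p: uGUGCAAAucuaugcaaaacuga

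Reads on Mir19a numbered 19 and 23 at PND 14 and 20 and 4 at PND 17, which is 2.09 and 3.02 CPM and 1.39 and 0.97 CPM. The log2 fold change was -1.05 [-2.46 to 0.35] and -1.30 [-3.21 to 0.61] without PND 14 mouse 1. With so few reads a difference was not detectable, and the counts do not separate the mature microRNA from its precursors. The 6 genes of the cluster, of which 3 were tested, summed to 8.46 and 7.61 CPM at PND 14 and to 5.85 and 4.59 CPM at PND 17.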

How the data were processed

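The authors sequenced ribosomal RNA-depleted RNA as reads of 50 bp, aligned them to mm9 with LifeScope and removed reads with more than 10 alignments. The methods say that the unique reads were then assigned to genes. Genes with close copies, such as retrogenes and their parents, may thus read low, which was not tested. Per the file headers and the methods, they deposited for each of 37675 Ensembl genes the raw count and the RPKM, which divides the count by exon length and library size. Whether strand was used is not given in the sources used here. The 12 libraries came from 10 mice. Barcodes of a PND 7 mouse were summed (counts) or averaged (RPKM).

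The count tests were run with R 4.3.3 and edgeR 4.0.16 (TMM, filterByExpr, quasi-likelihood, all 10 mice, age as the factor), RPKM with limma 3.58.1 and a pseudocount of 1, and DESeq2 1.42.0 was an alternative. Nothing says whether replicate mice shared a litter, so p-values measure the spread between these mice. Intervals cover 95%. The scripts were tested on simulated data. Genes were named by rule: those named in earlier work, per list the 2 highest and the 2 of largest difference, the 5 largest rises and falls at 10 CPM or more without overlap, the retrogene pairs, and the 3 of lowest p. Some genes that the rule names are not reported here. Crisp1, Adam7, Notch1 and Clu were added after their values were seen. Further list members were given outside the rule with their values known, among them Adam5, Ccna1, Hspa1l, Amh, Kitl, Cst11 and Lcn2. The members and lists were chosen with earlier results of these data known. In all, 3 forms of the MYB element were searched, 2 of them after a first look at single promoters and after the other had been counted over the lists, and all are given. Promoter windows (250 bases before and 50 after the start) and microRNAs are from RefSeq on GRCm38.p6. Python 3.11.15 with pandas 2.3.3 and matplotlib 3.10.9 made tables and figures.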

Additional observations from a re-analysis of the deposited data

How the results depend on the processing

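The edgeR count of 0 genes was the same with RLE scaling, library totals, a minimum of 10 CPM, only the 4 mice, no minimum fold, and with small structural RNA and mitochondrial genes left out. Without a filter on low counts 357 of 26788 genes were called (148 higher). Of these, 346 were also tested in the main fit, and 70 averaged below 1 CPM over the 4 mice. Mice of the same age lay at least 4-fold apart at 146 of them. The count of 0 thus depends on the filter, and the cause was not tested. DESeq2 called 1. Leaving out each mouse gave 0 to 174 calls. Leaving out PND 14 mouse 1 together with RLE scaling, library totals or the small RNAs, added after the data were seen, gave 0. The replicate block gave 0 calls (728 genes at an unadjusted p under 0.05), and the numbers do not pair the mice (r of the deviations -0.25 between PND 14 and PND 17, 0.40 between PND 14 and PND 21, and -0.10 to 0.16 otherwise). A crossed replicate block, added later, gave 0. The count by the study's criteria was 4. It was 1 with a pseudocount of 0.1, 1 with only the 4 mice, 60 without the minimum of 10 RPKM, 0 with an adjusted p, 3 with the replicate block, and 0 to 71 with each mouse left out. Genes without overlap numbered 5268, and 2894 at 10 CPM or more. Of 23 list medians, 11 changed sign without PND 14 mouse 1, and of 90 named genes 23 did. Depth limits genes near 1 CPM most in PND 17 mouse 2.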

Other observations

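Some gene groups outside meiosis also differed between the PND 14 mice. Cytosolic ribosomal protein genes (76 tested) summed to 4864 and 8951 CPM at PND 14 and to 8630 and 7755 CPM at PND 17, with a median log2 fold change of -0.03 and of -0.20 without PND 14 mouse 1. Clustered histone genes (62 tested) summed to 3408 and 4218 CPM at PND 14 and to 3556 and 3939 CPM at PND 17, with a median of -0.09 and of -0.28 without that mouse, and both PND 17 mice lay below PND 14 mouse 2 at 40 of the 62, beside 30.0% of all genes tested. Mitochondrial genes (19 tested) had a median of 0.04.

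Hbb-b1, a beta globin gene of red blood cells, was at 18.4 and 60.8 CPM at PND 14 and at 14.6 and 34.1 CPM at PND 17, so that within each age mouse 2 held the higher level. Notch1, a receptor gene, was at 76.3 and 28.3 CPM at PND 14 and at 21.2 and 27.8 CPM at PND 17. It was chosen after its values were seen, and its high value was in PND 14 mouse 1.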
